A study of Mus musculus with 7 samples.

Results

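Cytosolic ribosomal protein genes were followed through cryosections cut in series from mouse tibialis anterior, a muscle of the shin. The members were all gene rows whose name starts with Rpl or Rps, leaving out names containing -ps, names starting with Rps6k, and Rps19bp1. This rule took 93 of the 53083 genes shared by all tables, and it used no measured value. RNA had been extracted and sequenced section by section in 7 muscles, 2 labelled WT, 2 labelled Ctr and 3 labelled DMD, the last a name that the series title ties to Duchenne muscular dystrophy. The labels give no genotype, strain, treatment or age for any group. Column names carry pax7 for WT, hDMD for Ctr and mdx for DMD, words that the labels do not explain. It is not stated that each muscle is from its own animal, so a p-value here covers only the spread among these samples, which may be technical.

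Each ribosome is built from a small and a large subunit, and every subunit holds 1 copy of nearly all of its proteins. The mRNAs of these proteins belong to the most abundant of a cell, start with a run of pyrimidines and are translated under the control of growth signalling through mTOR. Growing and dividing cells make more of them than resting cells, and adult skeletal muscle is known for replacing one of them, Rpl3, by the muscle form Rpl3l.

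Total counts ranged from 11316565 to 41699100 per muscle, and 422 of 525 sections were deep enough to use (114 WT, 116 Ctr and 192 DMD). Muscle fibre genes summed to between 79369 and 165887 CPM (each gene's counts scaled to a common library total) in the 7 muscles, after scaling by the trimmed mean of M-values (TMM). Mouse Dmd, the dystrophin gene, stood at 8.81 to 19.8 CPM in the 7 muscles, and the added human DMD sequence, counted only for Ctr and DMD, at 14.4 to 24.7 CPM in those 5. Neither sequence separated Ctr from DMD, so they do not check these labels. DMD replicate 3 stood apart from the other DMD muscles. The TMM-scaled sum of 14 macrophage markers was 1230 and 1078 CPM in DMD replicates 1 and 2 but 241 CPM in replicate 3. It was 75.8 to 119 CPM in the WT and Ctr muscles. The 6 proliferation markers summed to 45.3, 23.5 and 2.75 CPM in the DMD muscles and to between 1.11 and 2.21 CPM in the others. In bulk sections, fewer cells of a type and less RNA per cell cannot be told apart. WT tables had been counted with another gene annotation than Ctr and DMD tables, so the WT group and its annotation cannot be told apart in any comparison with WT.

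Reads of ribosomal protein genes are hard to place, because the genome holds many processed copies. The tables divide a read that fits several places among them, and 93.5% of a member's nonzero section values (median over members) were not whole numbers. The share ran from 10.1% for Rpl7l1 to 100% for Rpl10l, and was 11.8% for Rpl3l. Exons of 28 members overlapped another gene on the same strand, among them small nucleolar RNA genes such as Snora64 in Rps2. Levels of members other than the few with mostly whole values are therefore uncertain. Rows named -ps, the processed copies, numbered 319, and with them the members' mean share of counts rose from 1.35% to 1.52% in WT, from 1.45% to 1.65% in Ctr and from 2.18% to 2.48% in DMD.

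Members took a larger share of all counts in 2 of the 3 DMD muscles. Their summed share was 1.38% and 1.32% in the WT muscles, 1.43% and 1.48% in the Ctr muscles, and 2.32%, 2.73% and 1.49% in the DMD muscles. DMD replicates 1 and 2 lay above all other muscles, and DMD replicate 3 lay level with Ctr. Group means were 1.35% ± 0.0415 (SD, n = 2), 1.45% ± 0.0336 (n = 2) and 2.18% ± 0.636 (n = 3).

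This share depended on what else was counted. Transcripts of the mitochondrial genome made up 51.5% and 57.0% of counts in the WT muscles, 38.2% and 36.0% in the Ctr muscles, and 37.3%, 31.8% and 43.0% in the DMD muscles. With them left out of the total, members held 2.84% and 3.06% in the WT muscles, 2.31% in both Ctr muscles, and 3.70%, 4.01% and 2.61% in the DMD muscles. WT then lay above DMD replicate 3 and above Ctr. On the TMM scale, which sets each muscle against its typical gene, the summed members were 17127 and 19706 CPM in WT, 13729 and 15366 CPM in Ctr, and 16506, 20432 and 15123 CPM in DMD. On this scale the DMD muscles lay within the range of the other 2 groups, except for replicate 2, which lay above it.

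**Figure D1:**
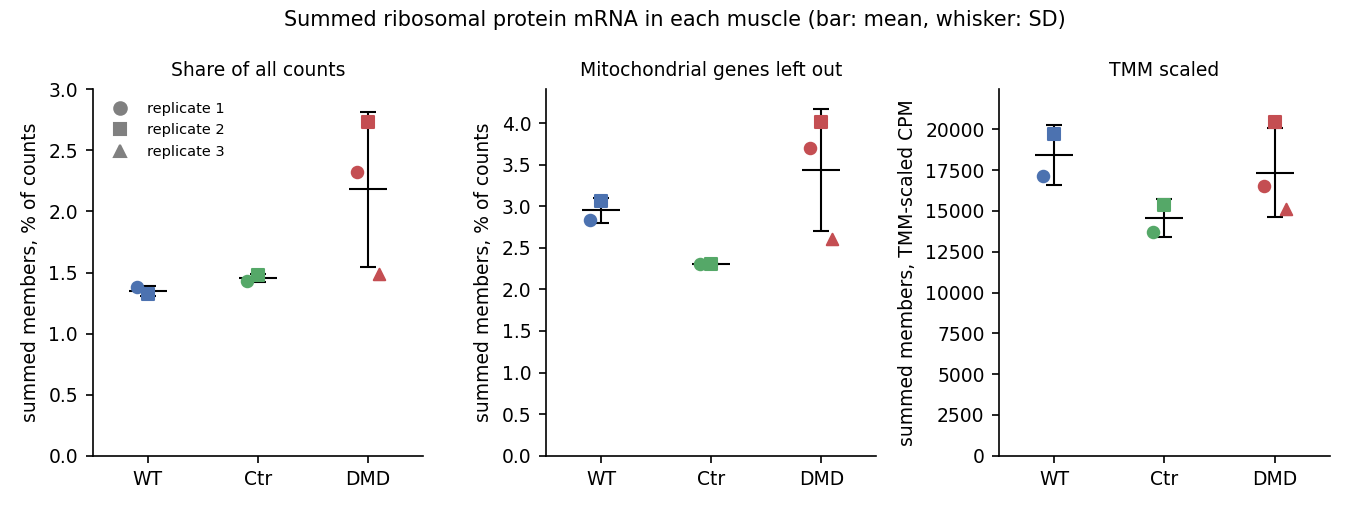
Summed level of the 93 members in each muscle (symbols: replicates; bar and whisker: mean and SD of a group), as a percent of all counts, as a percent of counts without mitochondrial genes, and as TMM-scaled CPM. DMD replicates 1 and 2 reach 2.32% and 2.73% of all counts against 1.32% to 1.49% in the other muscles, and this separation is not there on the TMM scale.

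Of the 93 members, 90 had enough counts to be tested. Rpl10l, Rpl32l and Rpl39l did not. Per kilobase of exon, Rps27 was the highest at a mean of 1136 CPM per kilobase over the 7 muscles, followed by Rplp1 (1045) and Rpl38 (826). The length is that of all annotated exons of a gene, which need not be the mRNA's, and this order depends on it. The lowest tested members were the copies Rps23rg1 (0.133 CPM per kilobase), Rps4l (0.848) and Rps3a3 (1.39).

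Between DMD and Ctr, 2 of 90 tested members were higher and none lower at an adjusted p below 0.05 (edgeR's quasi-likelihood test, Benjamini-Hochberg over all genes). The background was 12.7% of the 13746 genes tested, so 2.22% of the members is well under it. At an unadjusted p below 0.05, 10 members passed, or 11.1%, against 30.9% of all genes. The members' median log2 difference was 0.21, beside 0.02 over all genes, with 72 members above 0 and 18 below.

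Rpl35, a protein of the large subunit at the exit of the nascent chain tunnel (GRCm38 2:39001580-39005624), was one of the called members. Its TMM-scaled level was 183 and 230 CPM in Ctr and 350, 462 and 533 CPM in DMD. WT lay between them at 312 and 274 CPM. The log2 difference of DMD from Ctr was 1.12 ± 0.25 (SE), a 2.17-fold difference (adjusted p = 0.0238).

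Rpl39, a small protein that lines the same tunnel (X:37082520-37085402), was the other. Its level was 98.5 and 104 CPM in Ctr and 231, 219 and 214 CPM in DMD. The groups did not overlap, and the log2 difference was 1.13 ± 0.21 (adjusted p = 0.0145). WT muscles, at 197 and 257 CPM, lay as high as DMD, with a log2 difference of DMD from WT of -0.04 ± 0.20 (adjusted p = 0.913). On the TMM scale the value that stood apart for Rpl39 was thus that of Ctr. The TMM factors were 0.804 and 0.669 in WT and 1.41, 1.34 and 0.983 in DMD. Without them WT lies lower beside DMD, and WT was also counted with another annotation.

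Both calls needed both Ctr muscles. Without Ctr replicate 1 or without Ctr replicate 2, no member was called (in those fits 0.379% and 6.49% of all genes were), because the adjusted p of Rpl35 became 0.211 and 0.0602 and that of Rpl39 0.151 and 0.0537. Without DMD replicate 3, 12 members were called, all higher, against 25.3% of all genes, and they included Rpl3, Rpl12, Rpl10, Rplp1 and Rps12. With DMD replicates 1 or 2 left out the count stayed at 2. With only the 2 groups in the fit Rpl39 alone was called.

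**Figure D2:**
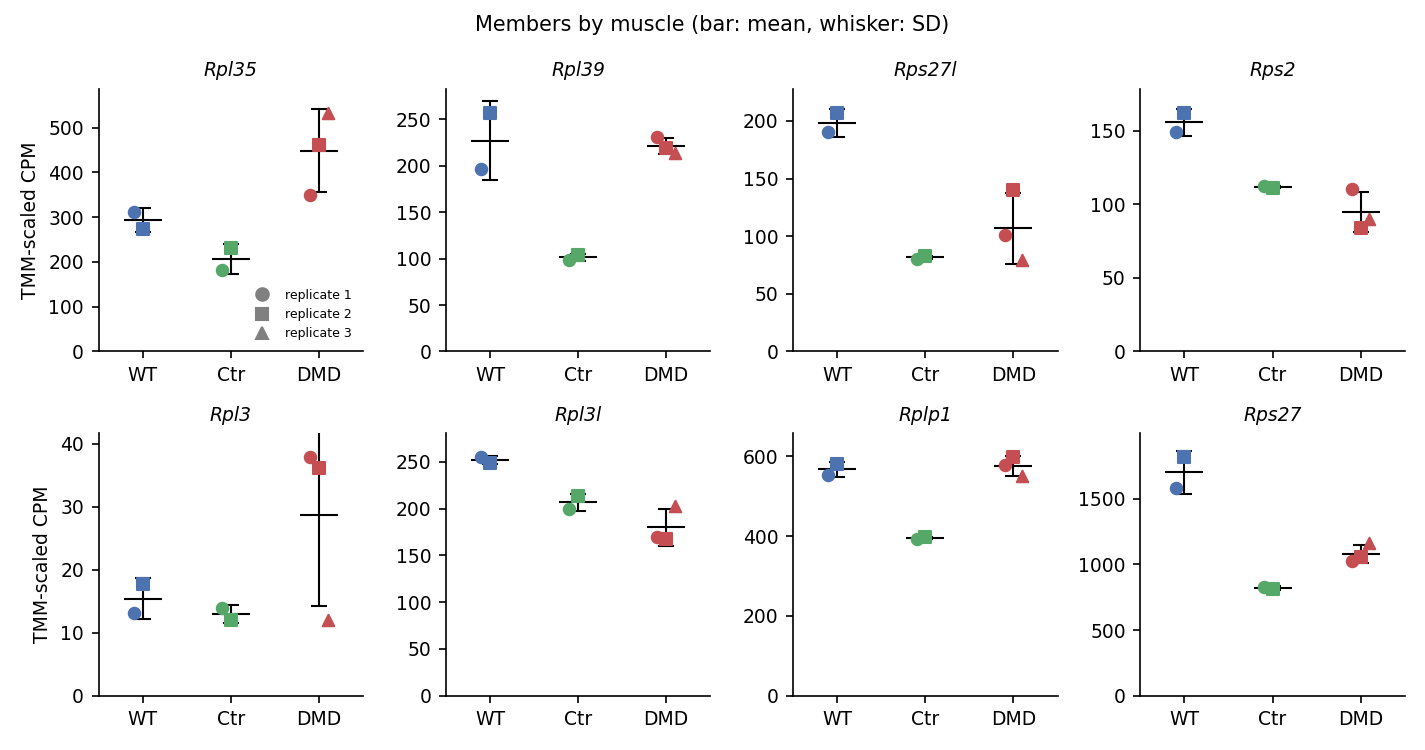
TMM-scaled CPM of 8 members in each muscle (symbols: replicates; bar and whisker: mean and SD). Rpl35 and Rpl39 are higher in all DMD than in all Ctr muscles, Rps27l and Rps2 are lower in all DMD than in all WT muscles, and Rpl3 is high in DMD replicates 1 and 2 at 37.9 and 36.1 CPM but not in replicate 3 at 12.0 CPM.

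Promoters of the members that these comparisons turn on are shown to set the muscle form Rpl3l beside usual ribosomal protein genes. The RefSeq promoter table (GRCm38.p6) held 68 of the 93 members, and not Rpl3. Each line holds 30 bases, 24 before and 6 from the first transcribed base. Capitals mark CAGCTG, an E-box bound by myogenic factors, or an unbroken run of at least 6 C or T letters across the first transcribed base. The windows lie at chr17:24727802-24727831 (plus strand) for Rpl3l, chr2:39005126-39005155 (minus) for Rpl35, chr3:90213643-90213672 (minus) for Rps27, chrX:37085217-37085246 (minus) for Rpl39, chr17:24720039-24720068 (plus) for Rps2 and chr9:66946062-66946091 (plus) for Rps27l.
Rpl3l: ctggCAGCTGagtgttctagctctgtcatt
Rpl35: tgaggaagtcggccccgCCCTTTCCTCTTT
Rps27: aggaacaggatttccgctttcgCTCCTTTC
Rpl39: ccatccccccctaagctccgcctctagcga
Rps2: gctgtgcgtaggcagtcgagatctcgcgct
Rps27l: cactcctctccactcctccccgccgcctct

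Rpl35 and Rps27 had the pyrimidine run, and Rpl3l had CAGCTG upstream of the start shown. Rpl39, Rps2 and Rps27l had neither in these windows. The table lists a further start for Rpl3l (chr17:24732661-24732690) and for Rps27l (chr9:66946389-66946418), and the 30 bases around each hold neither. The letter motifs were searched on both strands of the whole 300-base windows. CAGCTG was in 4 of the 68 members (5.88%), namely Rpl3l, Rpl35, Rpl6 and Rpl10l, and in 18.3% of the 27025 genes of the table. CCGGAAG, a site of ETS-family factors, was in 26 members (38.2%) and in 9.93% of all genes. A first transcribed C with only C or T in the base before and the 4 after it, read on the gene's strand, was found in 13 members (19.1%) and in 2.22% of all genes. CCATNTT was in 30.9% of members and 18.2% of genes, and TATAAA in 11.8% and 15.7%. None of these letter motifs contains another, and a match only describes the sequence.

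Between DMD and WT, no member was higher and 2 of 90 were lower, against a background of 15.2% of genes. The members' median log2 difference was -0.08 beside 0.07 over all genes. Rps27l, a paralog of Rps27 known as a target of p53, stood at 190 and 207 CPM in WT and at 101, 140 and 79.2 CPM in DMD. The groups did not overlap, and the log2 difference was -0.90 ± 0.24 (adjusted p = 0.0376). Rps2, at the mRNA entry of the small subunit, stood at 149 and 162 CPM in WT and at 110, 83.9 and 90.1 CPM in DMD, a log2 difference of -0.72 ± 0.20 (adjusted p = 0.0384).

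These differences from WT rested on the scaling. With totals that were not TMM-scaled, 35 members were higher in DMD than in WT and none lower, while 37.5% of all genes were called in that fit. The members' median became 0.70 and that of all genes 0.82, and Rps2 stood at 0.06. Without this scaling the median of all genes stood at 0.33 for DMD against Ctr, where the members' median was 0.55. Without either WT muscle no member was called. Without DMD replicate 2, 1 was called, and without DMD replicate 3, 7 were (3 higher and 4 lower).

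Between WT and Ctr, no member was called among 90 (edgeR), against a background of 0.364%, while DESeq2 called 5 (and 3.35% of all genes). At an unadjusted p below 0.05, 20 members passed, or 22.2%, beside 2479 of the 13746 genes. All 5 of the DESeq2 calls (Rpl10, Rpl21, Rpl39, Rps27 and Rps27l) were higher in WT. The members' median log2 difference was 0.33 beside -0.01 over all genes, with 74 above 0 and 16 below. Without TMM scaling the median was -0.13 beside -0.45. Rps27, the highest member, stood at 1585 and 1818 CPM in WT, 831 and 811 CPM in Ctr, and 1027, 1060 and 1160 CPM in DMD. On the TMM scale WT lay above both other groups, with a log2 difference from Ctr of 1.05 ± 0.23 (adjusted p = 0.0775, not called). Over 12 alternatives that difference ran from 0.60 to 1.14. The distance from DMD depends on the scaling, whose factors were 0.804 and 0.669 in WT and 1.41, 1.34 and 0.983 in DMD.

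The muscles were also ordered member by member. Every DMD muscle lay above every Ctr muscle for 29 of 90 members (32.2%, background 23.8%) and below for 2 (2.22%, background 22.2%). Every DMD muscle lay above every WT muscle for 8 members (8.89%, background 26.7%) and below for 14 (15.6%, background 24.2%). Both WT muscles lay above both Ctr muscles for 52 members (57.8%, background 27.2%) and below for 8 (8.89%, background 27.8%). The share of members with both WT muscles above both Ctr muscles was above the background, and the shares for DMD against WT were below it in both directions. DMD replicate 3 was the lowest of the DMD muscles for 64 of 90 members (71.1%), beside 40.6% of all genes.

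In 5 members every DMD muscle lay above all WT and Ctr muscles (5.56%, background 14.5%), and these are named after their values were seen. They were Rpl35 and Rpl37a of the large subunit, Rpl13a, known for its part in silencing inflammatory mRNAs, Rps18 of the small subunit, and Rps6, the subunit protein that S6 kinases phosphorylate. Rpl13a stood at 35.4 and 47.2 CPM in WT, 47.6 and 50.9 CPM in Ctr, and 59.5, 69.6 and 66.5 CPM in DMD. Rps6 stood at 309 and 271 CPM in WT, 299 and 260 CPM in Ctr, and 335, 419 and 386 CPM in DMD. Neither passed the test against Ctr (adjusted p = 0.204 and 0.182).

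**Figure D3:**
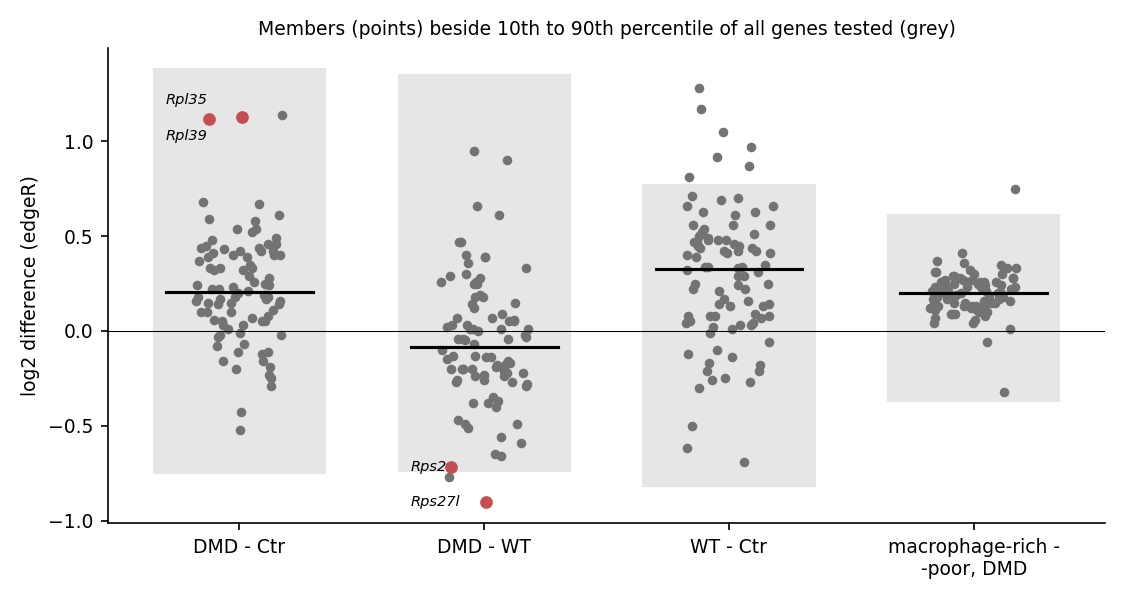
Log2 differences of the tested members in 4 comparisons (points; red and named where called at an adjusted p below 0.05; black line, the members' median; grey box, the 10th to 90th percentile of all genes tested). Members cluster around 0.21, -0.08, 0.33 and 0.20, and most lie inside the spread of all genes.

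The ribosomal stalk, which recruits the elongation factors, is made of Rplp0, Rplp1 and Rplp2. Rplp1 stood at 554 and 580 CPM in WT, 393 and 397 CPM in Ctr, and 579, 598 and 550 CPM in DMD. On the TMM scale, on which the level of WT depends, Ctr was the low group. The log2 difference of DMD from Ctr was 0.54 ± 0.20 (adjusted p = 0.0949). Rplp0 ran from 157 CPM in Ctr to 222 CPM in WT. Rplp2 overlapped between all groups, from 392 to 527 CPM. None of the 3 stalk genes passed a TMM-scaled test of all 7 muscles with no further term. Without DMD replicate 3, Rplp1 passed against Ctr, and with unscaled totals Rplp1 and Rplp2 passed against WT.

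Rpl3, of the core of the large subunit, and its muscle form Rpl3l were read as a pair. Rpl3 stood at 13.1 and 17.7 CPM in WT, 14.0 and 12.0 CPM in Ctr, and 37.9, 36.1 and 12.0 CPM in DMD. DMD replicates 1 and 2 were high and DMD replicate 3 was as low as the controls. The log2 difference from Ctr was 1.14 ± 0.43 (adjusted p = 0.103), and without DMD replicate 3 it was 1.51 (adjusted p = 0.00102).

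Rpl3l stood at 255 and 249 CPM in WT, 200 and 213 CPM in Ctr, and 170, 167 and 203 CPM in DMD. The DMD muscles that were high in Rpl3 were the lowest in Rpl3l. Its log2 difference was -0.20 ± 0.19 from Ctr (adjusted p = 0.522) and -0.49 ± 0.19 from WT (adjusted p = 0.113), and both signs turned without TMM scaling, to 0.10 and 0.25. Counts of Rpl3l per count of Rpl3 were 14.1 to 19.5 in WT, Ctr and DMD replicate 3. They were 4.49 and 4.63 in DMD replicates 1 and 2. Divided by the length of each gene's annotated exons, they were 27.2 to 37.7, and 8.68 and 8.94. That length need not be the mRNA's, so these are not numbers of transcripts. The ratio of both genes does not depend on scaling. Reads of Rpl3 were mostly divided (91.6% of its nonzero values were not whole) and its -ps rows held counts equal to 31.3% of its own.

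Other paralogs were read in the same way. Rpl22l1, known to replace Rpl22 in some cells, held 0.876 to 1.14 counts per Rpl22 count in the 7 muscles, with no group apart. This ratio and those below are divided by exon length, with the same limit. Rpl36al held 0.858 to 1.25 per Rpl36a. Rps27l held 0.153 and 0.145 per Rps27 in the WT muscles, 0.124 and 0.130 in the Ctr muscles, and 0.126, 0.168 and 0.0873 in the DMD muscles, so DMD replicates 2 and 3 bracketed all others. Rps27rt, a retrocopy, held 0.122 and 0.125 per Rps27 in WT and 0.179 to 0.246 in Ctr and DMD, a split along which the annotation also differs.

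Rps4l stood at 0.305 to 1.07 CPM beside 111 to 294 CPM of Rps4x. Per exon length it held 0.00202 to 0.0146 counts per Rps4x count, on 7 to 50 counts of Rps4l per muscle. Rpl7l1 stood at 8.07 to 14.6 CPM beside 115 to 193 CPM of Rpl7. The testis-linked forms were at the edge of detection. Rpl39l had 0 to 21 counts per muscle, and Rpl10l had 1 count over all 7 muscles together.

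Genes that build, run or regulate the ribosome were read from fixed lists. Fau and Rack1, which encode ribosomal proteins under other names, had log2 differences of DMD from Ctr of 0.61 and 0.12, and neither was called. Of 29 ribosome assembly factors, 6 were lower in DMD than in Ctr and none higher, with a median of -0.38 (20.7%, background 12.7%). Rrp12, an export and maturation factor, stood at 29.7 and 25.2 CPM in Ctr and 10.4 to 11.5 CPM in DMD (log2 difference -1.31 ± 0.19, adjusted p = 0.00703). It stood at 13.9 and 11.5 CPM in WT, and against WT none of the 29 was called (4 at an unadjusted p below 0.05). Tsr1 and Gnl3, of the small and large subunit's assembly, were lower than in Ctr by log2 differences of -1.37 and -1.04. The 2 Ctr muscles differed, at 15.4 and 8.94 CPM for Tsr1 and 19.1 and 9.45 CPM for Gnl3. Tsr1 stood at 4.32 to 4.94 CPM in DMD and at 6.30 and 4.42 CPM in WT. Gnl3 stood at 6.06 to 7.48 CPM in DMD and at 6.62 and 8.27 CPM in WT.

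Of 14 translation factors, 1 was higher and 1 lower than in Ctr, and they are the forms of the same elongation factor. Eef1a1, the form of most tissues, stood at 50.5 and 40.1 CPM in Ctr and 140, 119 and 69.0 CPM in DMD (log2 difference 1.27 ± 0.30, adjusted p = 0.0286). Eef1a2, the form of adult muscle and neurons, stood at 643 and 704 CPM in Ctr and 373, 366 and 345 CPM in DMD (-0.90 ± 0.19, adjusted p = 0.0225). Against WT neither passed (adjusted p = 0.0816 and 0.0930), with the same signs, and the called genes were Pabpc1, the poly(A)-binding protein, at 1.23 and Eif3e, of an initiation factor, at -0.96. Of 14 RNA polymerase I genes, 1 was lower than in Ctr (Cd3eap), and of 10 growth signalling genes 2 were lower (Larp1 and Eif4ebp1). The background against Ctr was 12.7% of all genes, and counts this small do not set the translation, polymerase or signalling list apart from it. Cd3eap stood at 7.96 and 4.43 CPM in Ctr and 2.28 to 3.18 CPM in DMD. Larp1 stood at 61.1 and 51.6 CPM in Ctr and 20.6 to 30.3 CPM in DMD. Eif4ebp1 leaned on Ctr replicate 1, at 44.7 CPM against 12.9 CPM in Ctr replicate 2 and 6.95 to 11.8 CPM in DMD.

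Mitochondrial ribosomal proteins, the 78 genes named Mrpl or Mrps, differed from the cytosolic ones. Against Ctr 1 was higher and 2 lower (background 12.7%), with a median of -0.29. Against WT none was higher and 21 were lower (26.9%, background 15.2%), with a median of -0.48, led by Mrpl55 and Mrpl18 with log2 differences of -1.41 and -1.32. Their share of all counts, without this scaling, was 0.207% and 0.191% in the WT muscles and 0.233%, 0.270% and 0.179% in the DMD muscles. These shares overlap, and the mean was 0.199% in WT and 0.227% in DMD. The cytosolic members had medians of 0.21 and -0.08 in the same comparisons. Both comparisons share the DMD muscles.

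Along the section order, which is the order of the barcode numbers in the column names, summed members changed most in DMD replicate 1. Each muscle's order was divided into 10 equal bins. As unscaled CPM per bin, they stayed between 12728 and 17693 in the WT muscles and between 13094 and 16535 in the Ctr muscles. In DMD replicate 1 they rose from 18517 ± 1333 (SD over 7 sections) in bin 1 to 35161 ± 3093 (6 sections) in bin 10. DMD replicate 2 was highest in bin 4, at 30758, and lowest in bin 2, at 24621. DMD replicate 3 went from 12765 to 18470.

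**Figure D4:**
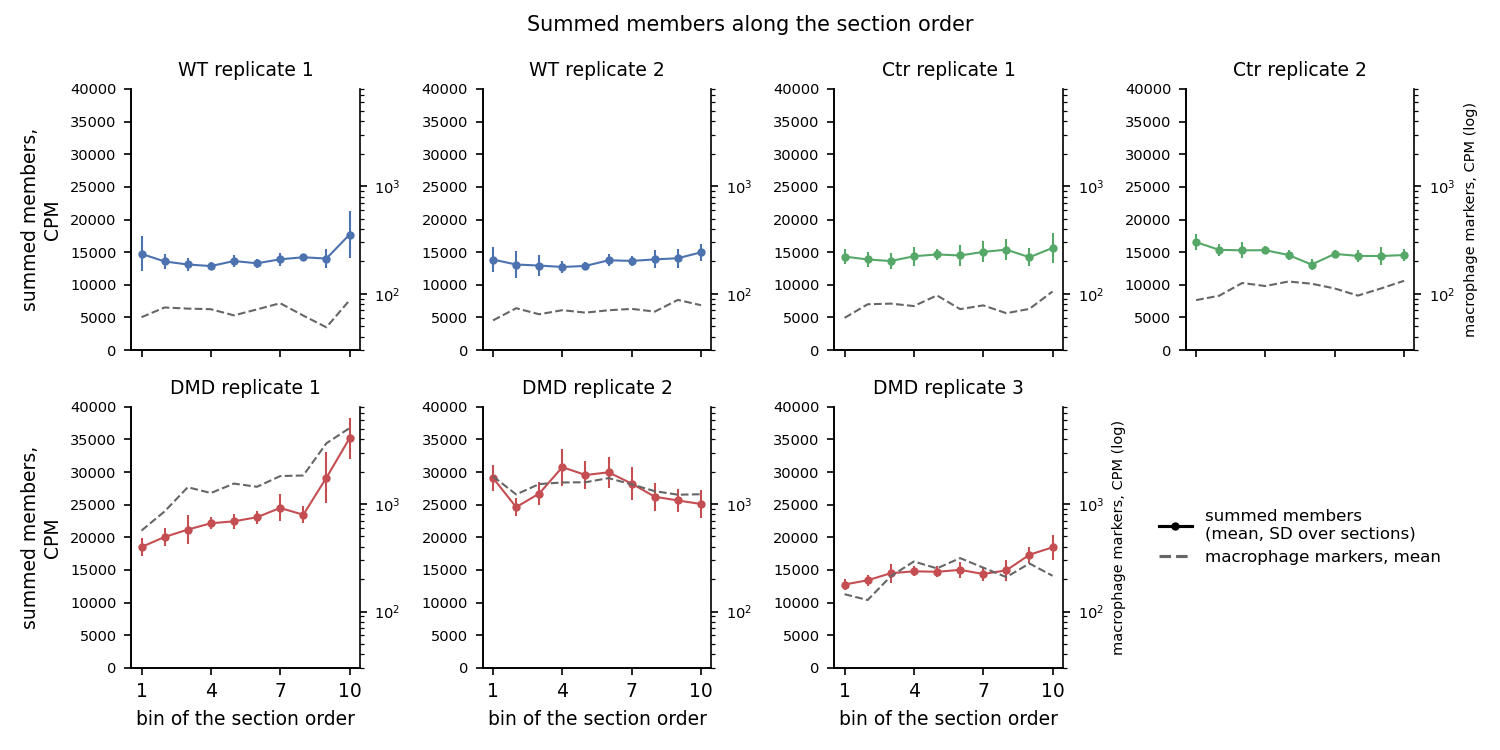
Summed members in 10 bins of the section order of each muscle (points: mean over sections; whiskers: SD over sections; left axis, CPM) with the mean summed macrophage markers (dashed, right log axis). In DMD replicate 1 both climb toward bin 10, to 35161 and 5067 CPM, while the WT and Ctr muscles stay between 12728 and 17693 CPM for the members.

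The correlation of summed members between neighbouring sections was 0.90 in DMD replicate 1, 0.53 and 0.71 in DMD replicates 2 and 3, and 0.00 to 0.45 in the WT and Ctr muscles. The coefficient of variation over sections was 8.26% to 20.7%, and counting error alone would give 0.893% to 2.03%.

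Summed members were correlated with marker sums across the sections of each muscle. In DMD replicate 1 they correlated with the summed macrophage markers at r = 0.97 (65 sections) and with matrix genes at 0.92. In DMD replicates 2 and 3 the correlation with macrophage markers was 0.70 (67 sections) and 0.52 (60 sections), and with matrix genes -0.19 and 0.28. With matrix genes it was 0.72 and 0.53 in WT and 0.66 and 0.04 in Ctr, above DMD replicates 2 and 3 in 3 of these 4 muscles. In the 4 WT and Ctr muscles it was -0.01 to 0.39 with macrophage markers and 0.56 to 0.82 with fibre genes, and with fibre genes it was -0.26 to -0.06 in the 3 DMD muscles. With mitochondrial genes left out of the total, the fibre correlation fell to between -0.02 and 0.55 in WT and Ctr and became -0.86 in DMD replicate 1, while that with macrophage markers was 0.89, 0.75 and 0.49 in the DMD muscles. On that total the matrix correlation of WT replicate 1 was 0.55, while WT replicate 2 fell to 0.19. Ctr replicate 1 fell to 0.15, Ctr replicate 2 to -0.23. DMD replicates 1, 2 and 3 had 0.79, -0.22 and 0.27. Only WT replicate 1 then lay above both DMD replicates 2 and 3 for matrix genes. All these correlations are descriptions, since sections share a library, a depth and a total. With the mitochondrially encoded share r was -0.80 to -0.57 in WT and Ctr and -0.82, 0.35 and 0.01 in DMD, and with the log2 section total it was -0.56 to -0.19 in the 7 muscles.

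The order was also divided into 3 equal parts, and the last part was compared with the first within muscles. No member of 89 tested was called (edgeR, and none with DESeq2), with 3 at an unadjusted p below 0.05, against a background of 3.11% of genes. The median was -0.02 beside 0.01. Rpl12, of the stalk base, had a log2 difference of 0.20 ± 0.07 (adjusted p = 0.155), Rpl3l -0.16 ± 0.06 (0.217) and Rplp2 -0.14 ± 0.06 (0.272). Without DMD replicate 2, Rpl12 was called at an adjusted p of 0.0149, and without TMM scaling 5 members were. On the TMM scale the 3 parts of DMD replicate 1 summed to 16435, 17130 and 17157 CPM, so the slope in its unscaled share was small on this scale.

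The middle part differed from both ends in no member of 89 (edgeR and DESeq2), with 2 at an unadjusted p below 0.05, against a background of 0.174%. Rplp2 came nearest at 0.13 ± 0.05 (adjusted p = 0.850), followed by Rpl19 at -0.14 ± 0.06 (0.879).

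The 20% of sections with the highest macrophage score were then set against the 20% with the lowest within each DMD muscle. As a share of counts, members held 3.03% against 1.92% in replicate 1, 3.03% against 2.43% in replicate 2, and 1.63% against 1.32% in replicate 3. The share was higher in all 3 DMD muscles, by 1.58, 1.25 and 1.24 times. In the WT and Ctr muscles the same ratio was 0.977 to 1.06. The median total of a macrophage-rich and a macrophage-poor section was 496629 and 526545 counts in DMD replicate 1. It was 157709 and 226195 in DMD replicate 2, and 428325 and 248078 in DMD replicate 3. In every WT and Ctr muscle the macrophage-rich sections were the deeper ones, at 254194 to 423347 against 120877 to 198679 counts. Their unscaled marker sums were 86.7 to 149 CPM against 49.5 to 74.7 CPM. The part of depth in these ratios was not tested in any group.

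Gene by gene the differences were small. No member of 87 tested was called (edgeR, and none with DESeq2), against a background of 1.21%, and 17 had an unadjusted p below 0.05 (19.5%, beside 16.6% of all genes). The median log2 difference was 0.20 beside 0.01, and 85 of 87 members were above 0. Over 10 alternatives that median ran from 0.15 to 0.43, the last without TMM scaling, where all genes had 0.26. The same median was 0.01 in WT and 0.00 in Ctr, where the macrophage-rich sections of every muscle were also the deeper ones. For the difference between DMD and Ctr it was 0.17, with no gene of 9669 called (edgeR; 563 at an unadjusted p below 0.05, and not run with DESeq2).

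Rpl3 led and Rpl3l went the other way. Rpl3 stood at 56.6 CPM in macrophage-rich against 24.9 CPM in macrophage-poor sections of DMD replicate 1, at 40.7 against 29.2 CPM in replicate 2, and at 12.6 against 10.4 CPM in replicate 3. It was higher in all 3, with a log2 difference of 0.75 ± 0.18 and an adjusted p of 0.0501. It was called in 5 of 10 alternatives, while DESeq2 gave an adjusted p of 0.610, and without DMD replicate 1 the difference was 0.42 (adjusted p = 0.404).

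Rpl3l stood at 131 against 219 CPM, 159 against 182 CPM, and 204 CPM in both sets of replicate 3, a log2 difference of -0.32 ± 0.15 (adjusted p = 0.291). Rps12 (0.41 ± 0.13, adjusted p = 0.122) and Rpl13a (0.37 ± 0.12, adjusted p = 0.153) followed Rpl3. Macrophage-rich sections also held more proliferation markers (3 of 6 called, all higher), and the part of dividing cells in the members' levels was not tested.

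Regenerating-rich sections, ranked by embryonic myosin and fusion genes and their like, were set against regenerating-poor ones in the same way. No member of 87 was called (edgeR and DESeq2), against a background of 0.0511%, and 2 had an unadjusted p below 0.05. The median was -0.10 beside 0.03, with 69 of 87 below 0, and without TMM scaling it was 0.15 beside 0.30. Members held 2.80% against 1.92% of counts in DMD replicate 1, 2.52% against 2.99% in replicate 2, and 1.54% against 1.48% in replicate 3, so the muscles disagreed. The nearest members were Rps27l at -0.36 ± 0.13 (adjusted p = 0.259), Rpl30 at -0.34 ± 0.14 (0.291) and Rps27 at -0.29 ± 0.14 (0.353). In DMD replicate 1 these sections had a median place of 58.0 among 65 in the order, and the macrophage-rich ones 59.0.

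Matrix-rich sections called no member of 87 either (edgeR and DESeq2), against a background of 1.33%, with 2 at an unadjusted p below 0.05. The median was -0.01 beside 0.03. Rpl3 was at 0.48 ± 0.19 (adjusted p = 0.182), Rps27l at -0.28 ± 0.13 (0.262) and Rpl22l1 at -0.24 ± 0.12 (0.320). Without DMD replicate 2, Rpl3 was called in both the regenerating-rich and the matrix-rich comparison.

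Rpl3 and Rpl3l were also followed along the order of single muscles. In DMD replicate 1, unscaled Rpl3 was 26.4 CPM (77 counts) in bin 1, 53.3 CPM in bin 5 and 123 CPM (272 counts) in bin 10, and Rpl3l was 249, 244 and 210 CPM. The counts of Rpl3l per Rpl3 fell from 9.44 to 1.70. DMD replicate 2 held 3.69 to 6.48 counts of Rpl3l per Rpl3 with no slope. WT, Ctr and DMD replicate 3 held 8.93 to 32.5, on 6 to 44 counts of Rpl3 per bin.

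**Figure D5:**
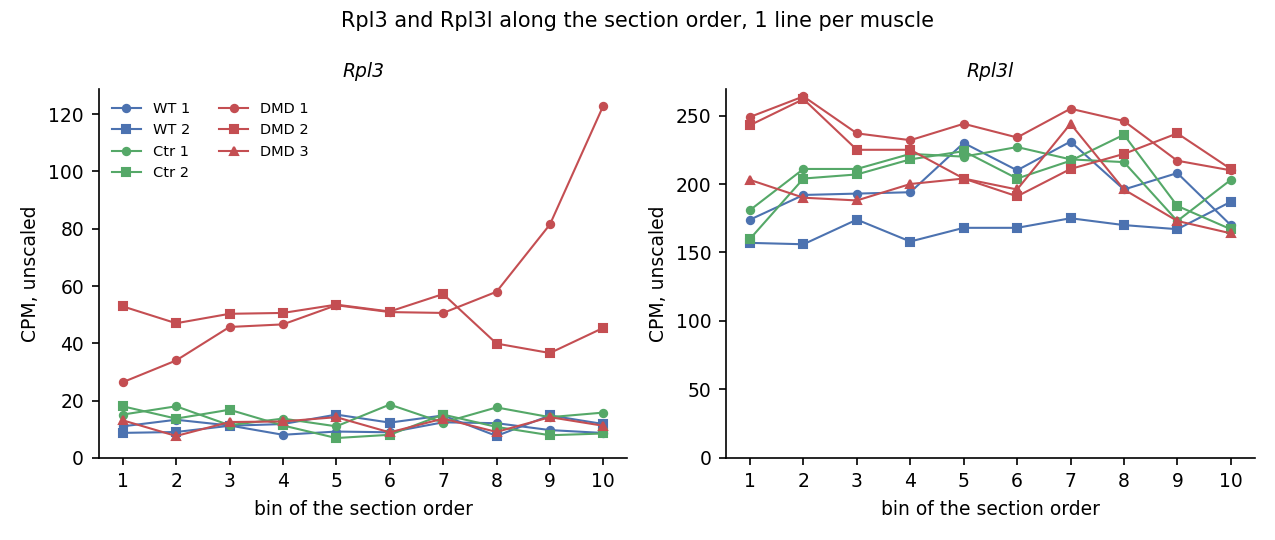
Unscaled CPM of Rpl3 (left) and Rpl3l (right) in 10 bins of the section order, 1 line per muscle. Rpl3 climbs from 26.4 to 123 CPM in DMD replicate 1 and stays between 36.6 and 57.2 CPM in DMD replicate 2, above all other muscles, while Rpl3l keeps to 156 to 264 CPM in every muscle.

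Most members varied together from section to section, though less so in some muscles. Of the 66 members with at least 50 CPM in every muscle, each was correlated with the sum of all other members within each muscle, on log2 (CPM + 10). The median over muscles ran from -0.19 for Rpl3l to 0.75, with 0.50 as the middle member. Rpl3l ran from -0.58 in DMD replicate 1 to 0.40 in WT replicate 2 and Ctr replicate 1. Rpl10 (-0.07 and -0.38) and Rps27 (-0.39 and -0.24) were below 0 in the Ctr muscles. Rpl41 (0.75) and Rps20 (0.74) were the most typical. Rpl35 reached 0.88 in DMD replicate 1 but 0.15 and 0.07 in the Ctr muscles, where its level was lowest (183 and 230 CPM). The shared total and depth of a section add to all of these values.

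Outside the members, the likeness of 750 genes to the summed members was measured in the same way over the 7 muscles. Gm10076 was the most alike (median r = 0.79), followed by Tnni2 (0.74), a fast-fibre troponin, Pomp (0.69), the proteasome maturation protein, Atp5l (0.66), of ATP synthase, and Rps16-ps2 (0.64). Tnni2 was alike in the controls, at 0.74 to 0.90, but not in DMD replicate 1, at -0.52. These values are on shares of all counts, mitochondrial genes included. Without those genes, the members' correlation with summed fibre genes was only -0.02 to 0.55 in WT and Ctr. The likeness of Tnni2 and Atp5l was not measured on that total. Gm10076 kept 0.69 to 0.92 in every muscle. Rps16-ps2 is by name a processed copy of a member, as are Rps23-ps1 (0.63) and Rpl31-ps8 (0.62) further down. Reads that fit a member and its copy are divided between them, so the likeness of such copies is no separate finding. Whether Gm10076 shares reads with members was not tested.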

How the data were processed

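Sections of 7 muscles had been sequenced with molecular identifiers and a section barcode in read 2, per the labels' protocols. The deposited tables hold expected counts per gene and section. Per the file headers, featureCounts 2.0.1 made these expected counts by exon and gene name on 1 strand, dividing reads that fit several places or overlapping genes. STAR 2.7.7a and GRCm38 are named in the submitters' processing notes. Sections with under 1000 counts or under 20% of their muscle's median were left out. Expected counts were summed per muscle or region and rounded, so the muscle is the replicate. All 53083 shared genes were fitted with edgeR 4.0.16 (filterByExpr, TMM, quasi-likelihood test, Benjamini-Hochberg adjustment, threshold 0.05) and, as an alternative, DESeq2 1.42.0. The procedure was tested on simulated data. A value after ± beside a log2 difference is an approximate standard error, from the fold and its F statistic. Regions were 3 equal parts of the section order, or the top and bottom 20% of sections by a marker score on log2(CPM + 10). Region fits kept the muscle as a term. Named genes were members that passed the test or led a comparison, known paralogs and the stalk genes. Alternatives changed scaling, filter, region size, groups fitted and muscles used. Fits with unscaled totals were added after the data were seen. Members and gene lists were chosen with earlier results of these data known. Values of some single genes are not reported here.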

Additional observations from a re-analysis of the deposited data

How the results depend on the processing

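Counts of called members that moved by over 1.5 times were as follows. The share of all genes called moved between fits too and is given above for some fits only. A count listed without that share does not set members apart from all genes. For DMD against Ctr (2 called), 1 was called with only these groups fitted, 1 with WT and Ctr joined, and 0 to 12 with 1 muscle left out. For DMD against WT (2 called), DESeq2 called 7, no filter on low counts 5, totals without TMM 35, and leaving out a muscle 0 to 7. For WT against Ctr (0 called), DESeq2 called 5, no filter 5, and only these groups fitted 7. For the last against the first of 3 parts of the order (0 called), totals without TMM gave 5 and leaving out a muscle 0 to 1. For macrophage-rich sections (0 called), no filter, wider sets of 1 in 3 sections, a score pseudocount of 50 CPM, and scaling without members and mitochondrial genes each gave 1, and leaving out a muscle 0 to 1. For regenerating-rich sections leaving out a muscle gave 0 to 1. For matrix-rich sections totals without TMM gave 2 and leaving out a muscle 0 to 1. The summed level was 2.95% in WT, 2.31% in Ctr and 3.44% in DMD without mitochondrial genes, and 1.52% in WT and 1.65% in Ctr with -ps genes. Signs turned only with totals without TMM, for Rpl22l1 in matrix-rich sections (0.05), Rpl3 in WT against Ctr (-0.23), Rpl3l in DMD against Ctr (0.10), DMD against WT (0.25) and WT against Ctr (-0.15), Rplp2 in the last part of the order (0.00) and Rps2 in DMD against WT (0.06). The causes were not tested. With replicate number as a block, 16, 9 and 8 members were called in DMD against Ctr, DMD against WT and WT against Ctr, beside 27.7%, 28.9% and 6.29% of all genes. Same-numbered muscles correlated at 0.01 to 0.19 in their deviations from the group mean, and muscles of unlike number at -0.19 to 0.06. Deviations in a group of 2 mirror each other, so these values cannot decide whether the numbers pair the muscles. DMD replicate 3 is alone in its block. The small number of muscles and divided reads limit every member's precision.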
